A study of Mus musculus with 8 samples.

Results

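A set of 10 genes that handle iron and copper or belong to the acute-phase response was followed in mouse bone marrow stromal cells, out of the 19938 genes with a probe set of their own on the array. They are Trf, Cp, Serpina3n, Lcn2, Hp, Saa3, Orm1, Steap4, Tfrc and Slc40a1. The set was chosen by its response to osteoinductive medium, in which Trf, Serpina3n and Cp stood among the leading genes, and the other members are genes of the same systems. The differences between media are therefore given below as a description without a test, while the comparisons of flight, gravity and hardware rest on contrasts that the rule of choice did not use. Members, lists and markers were nevertheless chosen with earlier results of these data known, so these comparisons may not be free of the choice.

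Stromal cells were flushed from the femurs and tibiae of C57BL/6 mice aged 6 to 8 weeks, expanded by adherence, and cultured on Skelite, a calcium phosphate scaffold. All 8 groups shared this strain, source and scaffold, and no genetic change or added agent other than the medium is named in the labels. In osteoinductive medium, which drives such cells towards bone formation and whose composition the labels do not give, cells were kept in microgravity, on a 1g centrifuge in the same flight incubator, in incubation units on the ground operated by hand, or in laboratory culture dishes. The same 4 conditions were used in growth medium, and each of the 8 combinations of medium and condition was measured on 1 array. The flight units were fully automated and the ground units were not, so flight and automation cannot be told apart in those comparisons. The labels do not state whether different animals or independently grown cultures lie behind the arrays. None of the 8 combinations was repeated, so the p-values measure spread between arrays that differ in condition or medium. They do not measure spread between animals or repeated cultures, and the small number of arrays limits the precision.

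Iron travels in plasma bound to transferrin (Trf), enters cells through the transferrin receptor (Tfrc) and leaves them through ferroportin (Slc40a1), while the copper protein ceruloplasmin (Cp) oxidises iron so that transferrin can load it. In the acute-phase response, the liver and other tissues secrete proteins that scavenge haemoglobin (haptoglobin, Hp), capture the iron carriers of bacteria (lipocalin 2, Lcn2), inhibit proteases (Serpina3n) or bind lipids and drugs (serum amyloid A3, Saa3, and orosomucoid 1, Orm1). Steap4 is a membrane reductase of iron and copper. Cytokines signalling through STAT3 and NF-kB, C/EBP transcription factors and glucocorticoids are known inducers of this programme.

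Promoter sequences are shown for the 3 members in the list below that lay higher in osteoinductive medium, and for Tfrc, which lay lower, to set their sequences side by side. They come from RefSeq on mouse build GRCm38.p6, whose promoter windows matched 6 of the 10 members (Lcn2, Cp, Steap4, Saa3, Serpina3n and Tfrc). Each line gives the bases of the window that lie before the first annotated base of the gene, 5′ to 3′ on the strand of the gene. Capitals mark matches, on either strand, to the glucocorticoid receptor motif AGAACA, the C/EBP motif TTNNGNAA, the STAT motif TTCNNNGAA, the NF-kB motif GGANNTTCC or the hypoxia motif ACGTG, and no capitals overlap between motifs.
Serpina3n, chr12:104406458-104406645, plus strand: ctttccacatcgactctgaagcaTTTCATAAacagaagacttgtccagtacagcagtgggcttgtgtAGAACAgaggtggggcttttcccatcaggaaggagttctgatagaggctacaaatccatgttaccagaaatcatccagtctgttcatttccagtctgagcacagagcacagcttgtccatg
Cp, chr3:19956804-19956932, plus strand: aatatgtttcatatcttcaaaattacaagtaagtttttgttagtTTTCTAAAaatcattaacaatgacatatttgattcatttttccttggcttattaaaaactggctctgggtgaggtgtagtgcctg
Lcn2, chr2:32387740-32387989, minus strand: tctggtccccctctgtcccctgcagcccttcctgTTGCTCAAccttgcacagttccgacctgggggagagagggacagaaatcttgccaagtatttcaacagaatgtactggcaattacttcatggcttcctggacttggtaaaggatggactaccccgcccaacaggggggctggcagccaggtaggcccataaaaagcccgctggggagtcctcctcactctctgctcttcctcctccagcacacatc
Tfrc, chr16:32608646-32608895, plus strand: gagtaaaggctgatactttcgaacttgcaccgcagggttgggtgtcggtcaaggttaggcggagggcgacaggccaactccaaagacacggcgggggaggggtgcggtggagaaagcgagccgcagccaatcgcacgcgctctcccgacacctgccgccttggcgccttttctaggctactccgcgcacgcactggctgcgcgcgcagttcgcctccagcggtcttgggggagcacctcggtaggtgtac

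The Serpina3n stretch held 1 C/EBP match followed by 1 AGAACA match. The Cp stretch and the Lcn2 stretch each held 1 C/EBP match, and the Tfrc stretch held no whole motif. In the whole windows of 300 bases, which reach 50 bases past the start, Saa3 had 4 C/EBP matches, Serpina3n and Steap4 had 2 each, and Steap4 also had 1 STAT match. The first of the 2 Cp windows also had 1 AGAACA match past the printed stretch. Both Tfrc windows held the same hypoxia match, which runs over the end of the printed stretch and is therefore not in capitals. Among all 32851 windows, 40.7% held the C/EBP motif, 19.0% AGAACA, 19.6% the hypoxia motif, 8.3% the STAT motif and 4.26% the NF-kB motif. A match describes letters and is not a binding site.

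The array medians lay between 180.9 and 196.4 intensity units, and 13205 genes passed the filter on dim genes, a mean log2 intensity above 7.14. Of the 10 members 8 passed, Steap4 narrowly at 7.19, while Saa3 at 6.71 and Orm1 at 6.39 did not and are given as values alone. The collagen genes Col1a1 and Col1a2, which stromal and bone-forming cells express, lay between 6043 and 7008 and between 7672 and 10346 on all arrays. Of 16 measured stromal and osteoblast markers 14 passed the filter, the bone-forming regulator Sp7 (at most 163.3) and Lepr not. Of 15 adipocyte markers 9 passed, among them the fatty acid carrier Fabp4 (at most 387.5), while the fat cell hormone Adipoq (at most 44.99) did not. The osteoinductive microgravity array stood apart in markers of lung epithelium, whose summed intensity was 16685 there and between 2302 and 4778 on the other 7 arrays. It also held the highest macrophage sum, 7151 against 3388 to 4280, with the lysozyme Lyz1 at 3089 there and between 97.4 and 403.4 elsewhere. The lysozyme Lyz2 was high there too, at 841.2 against 172.3 to 222.1. Of the other macrophage markers, Cd68 (244.4) and Csf1r (235.4) lay within the range of the other arrays, while Mrc1 (211.6) was above it.

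The plasma carrier transferrin was far higher in osteoinductive medium in every condition. Trf (probe set 10596148) had intensities of 4795 in microgravity, 4618 on the centrifuge, 3075 in the ground units and 3881 in laboratory dishes with osteoinductive medium, against 304.3, 269.9, 195.3 and 158.5 in the same conditions with growth medium. All osteoinductive arrays thus lay above all growth arrays, by 15.8-fold in microgravity, 17.1-fold on the centrifuge, 15.7-fold in the ground units and 24.5-fold in dishes. The mean log2 difference over the 4 conditions was 4.17. Within each medium the 2 flight arrays also lay above the 2 ground-based arrays.

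The protease inhibitor Serpina3n (probe set 10398075) had intensities of 3131, 3803, 1700 and 2950 in microgravity, centrifuge, ground and laboratory cultures with osteoinductive medium, against 293.3, 189.1, 149.5 and 106.2 with growth medium. The differences between media were 10.7-fold, 20.1-fold, 11.4-fold and 27.8-fold in that order of conditions. The growth arrays and the osteoinductive arrays were far apart, and the osteoinductive ground array was the lowest of its medium. Serpina3n belongs to a cluster of closely related genes, so part of its signal may come from relatives, which cannot be resolved with summarised probe sets.

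Ceruloplasmin followed the medium but not the flight pattern of Trf. Cp (probe set 10490989) had intensities of 2881, 3063, 2020 and 3181 in microgravity, centrifuge, ground and laboratory cultures with osteoinductive medium, against 317.7, 433.4, 523 and 515.7 with growth medium. In growth medium both flight arrays were below both ground-based arrays, whereas in osteoinductive medium the flight values lay between the ground and the laboratory value. The differences between media were 9.07-fold in microgravity, 7.07-fold on the centrifuge, 3.86-fold in ground units and 6.17-fold in dishes.

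Lipocalin 2 showed a smaller difference between media. Lcn2 (probe set 10481627) had intensities of 621.1, 397.4, 247.1 and 349.5 in microgravity, centrifuge, ground and laboratory cultures with osteoinductive medium, against 168.5, 152.8, 113.9 and 114.1 with growth medium. The microgravity array was the highest of its medium, and the lowest osteoinductive value exceeded the highest growth value. Differences between media ran from 2.17-fold in ground units to 3.69-fold in microgravity.

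**Figure D1:**
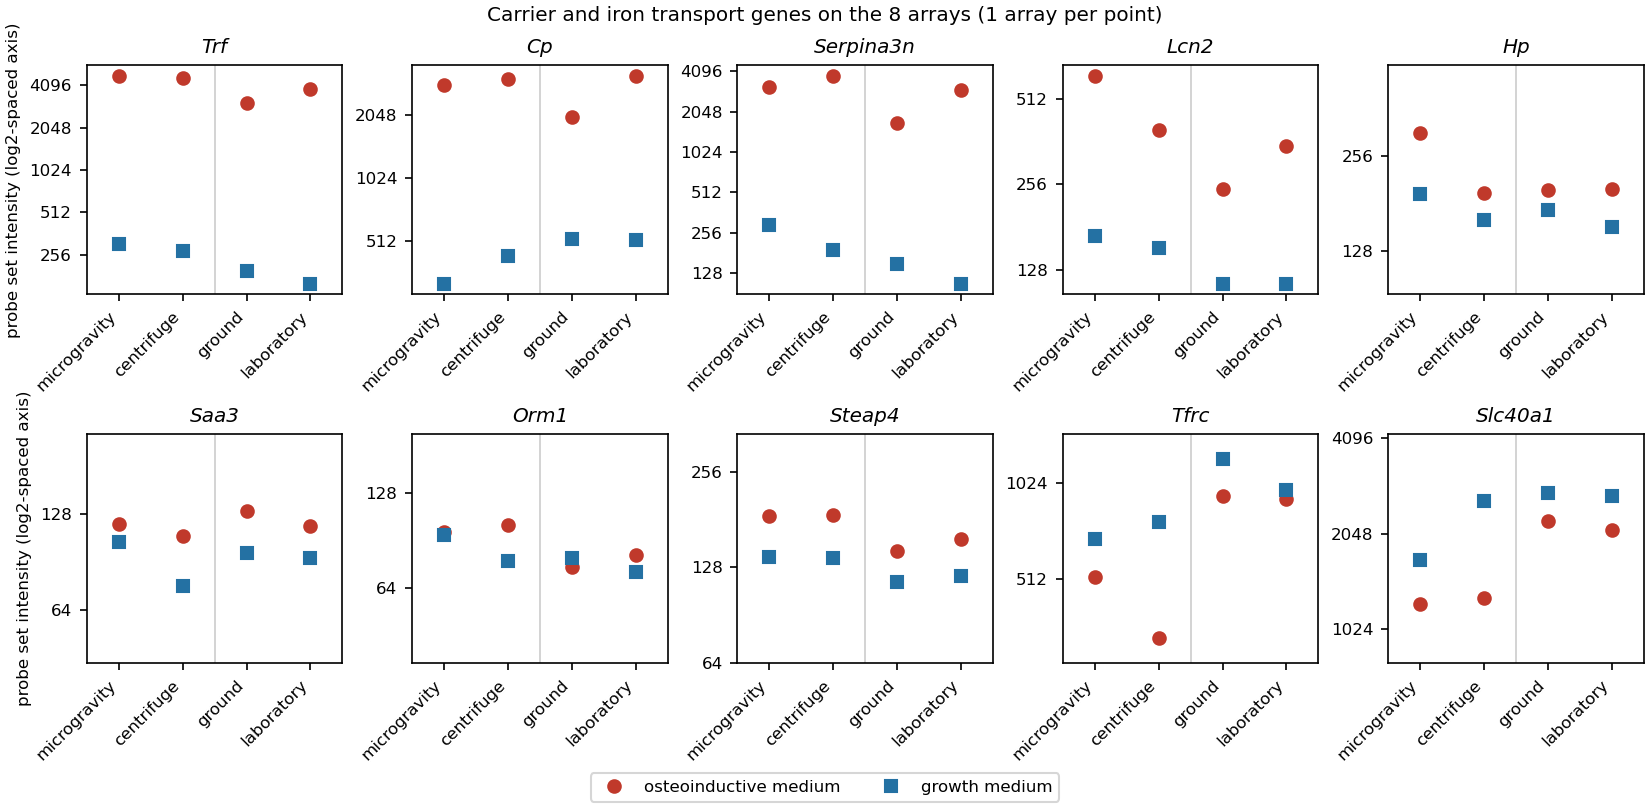
Probe set intensity of the 10 genes (vertical, log2-spaced axes that differ between panels) on the 8 arrays, by condition (horizontal) and medium (red circles osteoinductive, blue squares growth), with 1 array per point and a grey line between flight and ground-based conditions. Trf, Cp, Serpina3n and Lcn2 separate by medium, with Trf between 3075 and 4795 in osteoinductive and between 158.5 and 304.3 in growth medium, while Tfrc and Slc40a1 are lower in flight.

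Among the classical acute-phase proteins, Hp ranked between percentiles 44.3 and 64.5 of the probe sets of an array, and serum amyloid and orosomucoid were dim. Hp (probe set 10581605) had intensities of 302.3, 195.6, 199.3 and 201 in microgravity, centrifuge, ground and laboratory cultures with osteoinductive medium, against 193.4, 160.9, 172.4 and 153 with growth medium. Apart from the osteoinductive microgravity array, all Hp values lay within 153 and 201. Saa3 (probe set 10563597) ranged from 109.2 to 130.8 in osteoinductive and from 76.3 to 104.7 in growth medium, and Orm1 (probe set 10505438) from 74.9 to 101.3 and from 71.9 to 94. Saa3 never ranked above percentile 38.4 of the probe sets of an array, and Orm1 never above 28.0. Their relatives Saa1, Saa2 and Orm2 did not exceed 28.7, 77.5 and 111.5 on any array, and related sequences may share signal within these families.

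The metal reductase Steap4 (probe set 10519497) had intensities of 185.7, 187.2, 144.3 and 156.7 in microgravity, centrifuge, ground and laboratory cultures with osteoinductive medium, against 137.8, 137.1, 114.7 and 120.5 with growth medium. It was 1.26-fold to 1.37-fold higher in osteoinductive medium, in each of the 4 conditions, and the lowest osteoinductive value exceeded the highest growth value.

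The iron importer and exporter lay lower in osteoinductive medium within each condition, opposite to the carriers, although the ranges of the media overlapped. Tfrc (probe set 10435075) had intensities of 519.8, 331.6, 935 and 914 in microgravity, centrifuge, ground and laboratory cultures with osteoinductive medium, against 681.7, 771.4, 1222 and 974.9 with growth medium. All 4 flight arrays lay below all 4 ground-based arrays, whatever the medium, but the share of all genes that separate like this was not counted. Slc40a1 (probe set 10354374) had intensities of 1227, 1282, 2244 and 2104 in the osteoinductive cultures, against 1690, 2596, 2757 and 2699 in the growth cultures. For both genes the gap between media was widest on the centrifuge, where the log2 difference was -1.22 for Tfrc and -1.02 for Slc40a1. In dishes it was -0.09 for Tfrc and -0.36 for Slc40a1. In bulk cultures, fewer cells that express a gene and less RNA per cell cannot be told apart.

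**Figure D2:**
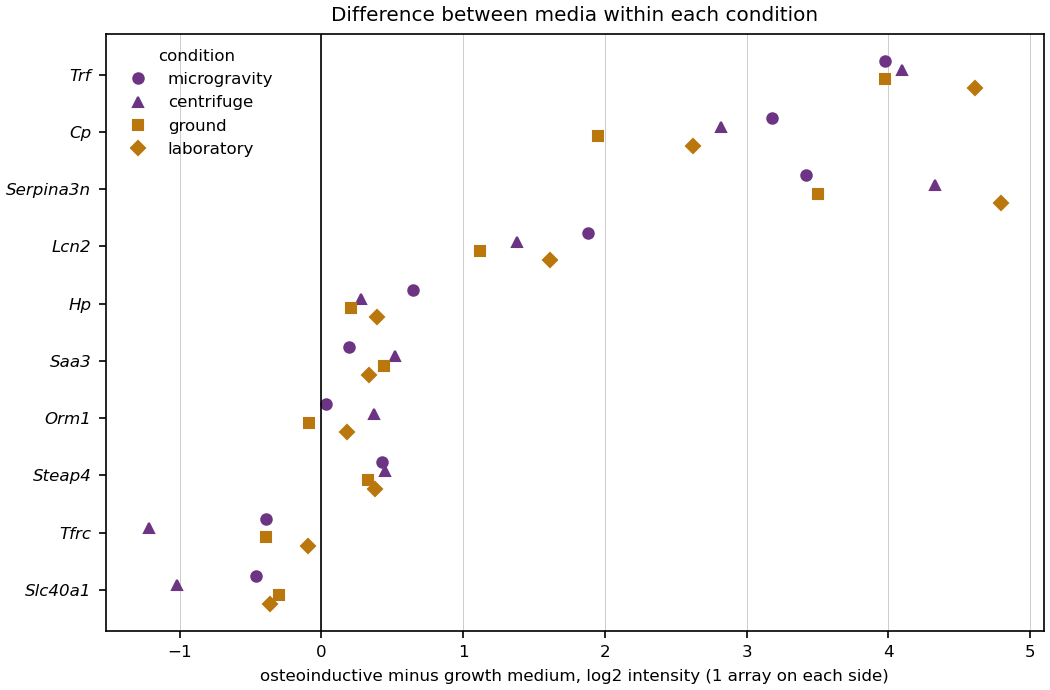
Log2 difference between osteoinductive and growth medium (horizontal) for each gene (vertical) within microgravity, centrifuge, ground and laboratory conditions, each point being 1 array minus 1 array. Trf lies between 3.98 and 4.61 and Serpina3n between 3.42 and 4.80, while Tfrc and Slc40a1 lie below 0 in all 4 conditions.

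Genes whose levels ran most parallel to Trf over the 8 arrays were Folh1 (r = 0.995), the retinaldehyde dehydrogenase Aldh1a1 (0.994), Hsd11b1, which regenerates active glucocorticoid (0.992), Aldh1a7 (0.989) and Brinp3 (0.988). Folh1 had intensities of 858.4, 859.1, 573.3 and 854.4 in the osteoinductive cultures, against 111.8, 97.1, 88.8 and 91.3 in the growth cultures. For Tfrc they were the growth factor Tgfb3 (0.989), the receptor Nrp1 (0.981), AI506816 (0.980), Nlrp5-ps (0.980) and the splicing helicase Ddx23 (0.979). Nrp1 had intensities of 577.2, 340.5, 948.3 and 771.7 in the osteoinductive cultures, against 656.1, 736.4, 1258 and 1008 in the growth cultures. These are Pearson correlations over 8 arrays that share 2 media and 4 conditions, taken as the highest of 13205 genes, and they describe likeness alone.

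Among genes listed as regulators of the acute-phase response, more were called higher than lower in osteoinductive medium. This list also counts glucocorticoid-induced genes as regulators (Fkbp5, Tsc22d3 and Per1), and all of these were among those called higher. Of 24 tested regulators other than the members, 12 were higher and 3 lower in osteoinductive than in growth medium (limma, adjusted p under 0.05), with a median log2 difference of 0.30 against -0.02 over all tested genes. Over all 13205 genes, 6.42% were called higher and 8.13% lower. The glucocorticoid-induced genes Fkbp5 and Tsc22d3 led, at 5.22-fold (log2 2.39, SE 0.11, adjusted p = 5.16e-08) and 3.17-fold (1.66, SE 0.11, adjusted p = 1.27e-06). With the centrifuge array of either medium left out, 8 of 24 were called higher. Markers of cell types also differed between media: 3 of 14 tested stromal and osteoblast markers were called higher (Postn 2.63-fold, Pdgfra 1.74-fold and Col3a1 1.48-fold), 2 of 9 adipocyte markers higher (Fabp4 2.15-fold and Cebpa 1.24-fold), 3 of 12 macrophage markers lower and 4 of 13 neuron markers lower. Cebpa is also in the regulator list. Summed stromal intensities were 34774 to 40720 in osteoinductive and 30381 to 37223 in growth medium, and adipocyte sums 2641 to 3188 and 2370 to 2866. Their part in the differences between media was not tested.

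Receptors and transcription factors on the route to acute-phase genes were among the 12, named here after their values were seen. The oncostatin M receptor Osmr was 2.52-fold higher, the interleukin 6 receptor Il6ra 1.89-fold, the transcription factor Stat3 1.77-fold and the C/EBP factor Cebpd 2.28-fold. Osmr had intensities of 934.4, 1059, 787.2 and 1100 in the osteoinductive cultures, against 229.1, 381.5, 504.5 and 480.2 in the growth cultures, so that it was lowest in the growth cultures that flew. Among genes for cytokines, Il1rn, the interleukin 1 receptor antagonist, was 1.43-fold higher (adjusted p = 0.00717) and was named after its value was seen. Lif was lower by 0.67 on the log2 scale (adjusted p = 0.000935), and Tnf, named after its value was seen, by 0.33 (limma, adjusted p = 0.0213). Tnf was dim, at 109 to 156.8 in osteoinductive and 149.6 to 188.3 in growth medium. In osteoinductive medium it averaged below the log2 filter cut of 7.14, so it was tested only through its growth medium values. Il6 never exceeded 36.9 and Osm never exceeded 108.6. The NF-kB inhibitor and target Nfkbia was also lower (log2 difference -0.42, adjusted p = 0.00665). The 9 regulators that were not called included Socs3 (log2 difference 0.09), Rela (0.06) and Nr3c1 (-0.09), named after their values were seen.

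Of 17 tested plasma and acute-phase proteins other than the members, 5 were higher and 2 lower in osteoinductive medium, with a median of 0.13. The shares over all genes were 6.42% called higher and 8.13% called lower. Itih2, a heavy chain of the hyaluronan-binding inter-alpha inhibitor, was 4.38-fold higher (log2 2.13, SE 0.13, adjusted p = 6.65e-07) and the lipocalin Apod 1.96-fold higher (0.97, SE 0.09, adjusted p = 2.80e-05). Serpina1d, of the alpha-1-antitrypsin family, was lower by 0.77 (adjusted p = 0.00299), and the lipopolysaccharide receptor Cd14 by 0.30 (adjusted p = 0.0378). The Cd14 call ended with no filter on dim genes (adjusted p = 0.0596), with an offset of 32 (0.0547), and without the osteoinductive centrifuge (0.0705), ground (0.154) or laboratory (0.227) array or the growth centrifuge array (0.07005), and Cd14 fell below the filter without the growth ground or laboratory array. Leaving out either array of a condition removes that condition from the contrast of media, so the 2 centrifuge fits are 1 check. The other 17 measured genes of the list were too dim to test. With the centrifuge array of either medium left out, 3 were called higher and 1 lower, and with the laboratory array of either medium left out, 1 was called lower.

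Copper genes were higher in osteoinductive medium where they were called. Of 22 tested, limma called 6 higher and 0 lower, with a median of 0.10 and 1 lower gene, the copper importer Slc31a1, at an unadjusted p under 0.05 (log2 difference -0.26, adjusted p = 0.107). The metal-binding metallothionein Mt2 was 2.93-fold higher (log2 1.55, adjusted p = 1.27e-06) and Lox, the copper enzyme that crosslinks collagen, 2.14-fold higher (1.10, adjusted p = 0.000122). Of 34 tested iron genes, 4 were higher and 3 lower, with a median of -0.04, where 6.42% of all genes were called higher and 8.13% lower, so few iron genes are called beyond the background. The reductases Steap2 and Steap3 are in both lists and were called higher, so the copper and iron counts share them. Lrp1, a receptor that also takes up haem-haemopexin, was 1.71-fold higher (adjusted p = 0.00131) and the metal importer Slc39a14 was 1.64-fold higher (adjusted p = 0.000543). Hmox1, which releases iron from haem, was lower by 0.85 (adjusted p = 0.00404) and the reductase relative Steap1 by 0.36 (adjusted p = 0.0308). With the centrifuge array of either medium left out, limma called no iron gene lower, and Hmox1 was then lower by 0.67 with adjusted p = 0.0518 without the osteoinductive and 0.0511 without the growth centrifuge array. These 2 fits give the same difference and are 1 check. With the microgravity array of either medium left out, 1 was called lower. The Steap1 call ended without the microgravity, centrifuge or laboratory array of either medium, at adjusted p between 0.0778 and 0.133.

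Trf, Serpina3n, Lcn2 and Steap4 were higher and the iron transporters Tfrc and Slc40a1 lower on flight than on ground-based arrays, while Cp and Hp were not called. In the 4 flight arrays against the 4 ground-based arrays, with medium in the model, 4 of the 8 tested members rose and 2 fell, by limma with Benjamini-Hochberg adjustment over 13205 genes. Over all genes 12.7% were called higher and 25.7% lower, so calls were common, and the 2 of 8 members that fell lie near the share called lower. The median log2 difference was 0.23 over the tested members and -0.09 over all genes. The 4 arrays on each side come from different conditions that count here as repeats.

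Serpina3n rose by 0.76 (SE 0.18, adjusted p = 0.00704), Lcn2 by 0.63 (SE 0.14, adjusted p = 0.00507) and Trf by 0.57 (SE 0.11, adjusted p = 0.00138). For each of these genes both flight arrays lay above both ground-based arrays within either medium, although the media themselves lay much further apart. The share of all genes that separate in this way was not counted, so the separation describes the values and adds nothing to the test. Without the osteoinductive microgravity array, the one with high lung markers and lysozymes, the log2 differences were 0.85 for Serpina3n, 0.47 for Lcn2 and 0.59 for Trf (adjusted p = 0.0108, 0.0138 and 0.00499). Steap4 rose by 0.27 (SE 0.07, adjusted p = 0.0144), but after quantile normalization it was higher by 0.18 with adjusted p = 0.0646, and without the osteoinductive ground array by 0.24 with adjusted p = 0.0592. Its ground-based arrays alone averaged below the filter cut of 7.14, so Steap4 was tested only because its flight values were higher.

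Tfrc fell by 0.87 (SE 0.15, adjusted p = 0.00092) and Slc40a1 by 0.59 (SE 0.13, adjusted p = 0.00406). Leaving out any single array kept Tfrc between -0.99 and -0.69 and Slc40a1 between -0.75 and -0.50, all past the threshold. Hp (log2 difference 0.20, adjusted p = 0.218) and Cp (-0.13, adjusted p = 0.569) did not pass. Without the osteoinductive microgravity array the Hp difference was 0.06 (adjusted p = 0.683). Without the growth microgravity array the Cp difference was 0.03.

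**Figure D3:**
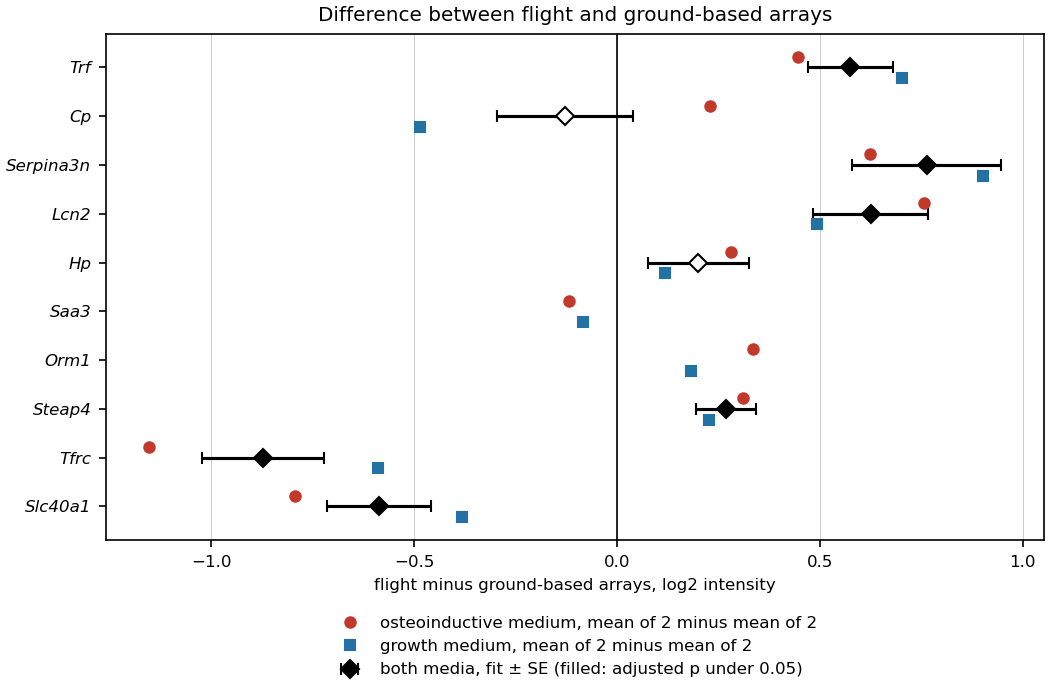
Log2 difference between flight and ground-based arrays (horizontal) for each gene (vertical). Black diamonds give the fit over both media with its SE, filled where adjusted p is under 0.05, and red circles and blue squares give the mean of 2 flight minus the mean of 2 ground-based arrays in osteoinductive and growth medium. Tfrc is at -1.15 in osteoinductive and -0.59 in growth medium, and Cp at 0.23 and -0.48.

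Markers of neurons and skeletal muscle were higher in flight on these arrays. Of 13 tested neuron markers 13 were called higher, with summed intensities of all 16 measured between 12253 and 18409 in flight, against 3459 and 4517 in ground-based arrays. Of 15 tested skeletal muscle markers 13 were called higher, with sums between 7423 and 9896 in flight, against 3228 and 3406. Hepatocyte markers, the classical source of these plasma proteins, were mostly too dim to test (4 of 16 tested, 1 called higher), and their sums of 3288 to 3849 in flight, against 1873 to 1916, followed Ttr, while albumin (Alb) never exceeded 82.7 outside the osteoinductive microgravity array, where it was 191.9. Neutrophil sums, relevant to Lcn2 as a granule protein, were 1840 to 2000 in flight, against 1766 to 1857, with Ltf, Ngp and Mpo below the filter. Of 11 tested lung markers 4 were called higher, and of 14 tested stromal and osteoblast markers 4 were called higher and 4 lower. Macrophage markers, relevant to Slc40a1, had 2 of 12 tested called higher and 2 lower. Erythroid markers, relevant to Tfrc, had 1 of 2 tested called higher. Of 9 tested adipocyte markers 2 were called higher and 1 lower. With 12.7% of all genes called higher and 25.7% lower, and few genes tested per list, the macrophage, erythroid and adipocyte counts do not stand out from this background. The part of any such cells in the member results was not tested.

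The difference between media was compared between flight and ground-based arrays by an interaction term. In limma no gene passed among 13205 (0% called, smallest adjusted p = 0.647, 525 genes at an unadjusted p under 0.05), and 0 of the 8 tested members did, with 1 of them at an unadjusted p under 0.05. That member was Cp, whose medium response was 8.01-fold in flight and 4.88-fold on the ground (difference of log2 differences 0.71, SE 0.28, unadjusted p = 0.0246, adjusted p = 0.999). For Tfrc the log2 medium difference was -0.80 in flight and -0.24 on the ground (interaction -0.56, SE 0.27), and for Slc40a1 -0.74 and -0.33 (interaction -0.41, SE 0.24). For Trf it was 4.04 in flight and 4.30 on the ground (interaction -0.26, SE 0.21). The interaction was -0.28 for Serpina3n (SE 0.37), 0.26 for Lcn2 (SE 0.28), 0.16 for Hp and 0.08 for Steap4. With 2 arrays per combination the errors leave room for differences of this size, and the missing call does not show that the responses were alike.

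Setting microgravity against the centrifuge compares gravity levels aboard the same incubator. No gene passed in limma (0% called, smallest adjusted p = 0.187, 1507 genes at an unadjusted p under 0.05), and 0 of the 8 tested members did, with 2 at an unadjusted p under 0.05. These were Hp (log2 difference 0.45, SE 0.13, unadjusted p = 0.00478, adjusted p = 0.3) and Lcn2 (0.39, SE 0.16, unadjusted p = 0.0297, adjusted p = 0.396). In osteoinductive medium microgravity exceeded the centrifuge by 1.55-fold for Hp and 1.56-fold for Lcn2, against 1.202-fold and 1.103-fold in growth medium. The osteoinductive microgravity array behind the larger ratios is the one with the summed lung marker intensity of 16685, against 3472 on its centrifuge counterpart. Without it the log2 differences were 0.27 for Hp (adjusted p = 0.294) and 0.14 for Lcn2 (adjusted p = 0.666), and the part of such RNA was not tested. Tfrc went in opposite directions, at 1.57-fold in osteoinductive and 0.884-fold in growth medium.

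Ground incubation units were set against dishes to compare the hardware under normal gravity. In limma no gene reached the threshold (0% called, smallest adjusted p = 0.441, 269 genes at an unadjusted p under 0.05), and none of the 8 tested members had an unadjusted p under 0.05. The osteoinductive ground array was nevertheless below its laboratory counterpart in Serpina3n (0.576-fold), Cp (0.635-fold), Lcn2 (0.707-fold) and Trf (0.792-fold), while in growth medium the ratios were 1.41, 1.01, 0.999 and 1.23. These are ratios of 1 array to 1 array.

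Of the 17 tested plasma proteins outside the set, 9 rose and 2 fell in flight, with a median of 0.27, where 12.7% of all genes were called higher and 25.7% lower. All 13 tested neuron markers were called higher in flight too, and any link to these proteins was not tested. Ttr, the thyroid hormone carrier, was 11.8-fold higher (log2 3.56, SE 0.14, adjusted p = 2.96e-09) with intensities of 1420, 1323, 1909 and 1881 on the flight arrays, against 114.7 to 159.6 on the ground-based arrays. The complement inhibitor Serping1 was 2.49-fold higher (1.32, SE 0.25, adjusted p = 0.00159), and higher by 0.97 (adjusted p = 0.000214) without the osteoinductive microgravity array, where it was 635.9, against 107.5 to 271.4 elsewhere. On the ground-based arrays Ttr and Serping1 averaged below the filter cut of 7.14, so both entered the count only through their flight values. With no filter both remained called (limma, adjusted p = 6.93e-09 and 0.00218). Serpina1d fell by 0.68 (adjusted p = 0.00699) and the angiogenesis inhibitor Serpinf1 by 0.38 (adjusted p = 0.00723), or by 0.22 after quantile normalization (adjusted p = 0.0367).

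Of 34 tested iron genes 4 rose and 8 fell in flight, with a median of -0.15. Over all genes 12.7% were called higher and 25.7% lower, with a median of -0.09, so the counts of the iron list lie near this background. Hmox1 fell by 0.93 (SE 0.17, adjusted p = 0.00151) and Steap1 by 0.86 (SE 0.19, adjusted p = 0.003985), while the lipocalin receptor Slc22a17 was 2.02-fold higher (adjusted p = 5.7e-06) and the ferric reductase Cybrd1 1.503-fold higher (adjusted p = 0.000786). Of the genes that rose, Cybrd1, Slc39a8 and Bmp6 averaged below the filter cut of 7.14 on the ground-based arrays and were tested only through their flight values. With no filter Cybrd1 remained called (limma, adjusted p = 0.0011). Named after their values were seen, the ferritin light chain Ftl1 fell by 0.47 (adjusted p = 0.00309) and the biliverdin reductase Blvrb by 0.65 (adjusted p = 0.000291). Ferritin heavy chain Fth1 lay between 11805 and 14086 on all arrays and did not pass. Without the growth centrifuge array 15 iron genes were called lower, and without the osteoinductive ground or the growth laboratory array 2 were called higher.

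Of 22 tested copper genes 2 rose and 9 fell in flight, with a median of -0.16, where 12.7% of all genes were called higher and 25.7% lower. The lysyl oxidase relative Loxl3 fell by 0.86 (SE 0.12, adjusted p = 0.000201), and Slc31a1, named after its value was seen, by 0.56 (adjusted p = 0.000776). The reductase Steap2, which the iron list holds too, fell by 0.58 (adjusted p = 0.00759), but by 0.17 with adjusted p = 0.181 when its probe sets were averaged. The brain metallothionein Mt3 was 1.68-fold higher (adjusted p = 0.000114), and the copper exporter Atp7b was 1.196-fold higher (adjusted p = 0.0462), a call that ended under most alternatives, at adjusted p = 0.2045 after quantile normalization. Atp7b averaged below the filter cut of 7.14 on the ground-based arrays, so it was tested only through its flight values. Its limma call ended with no filter (adjusted p = 0.0617).

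Of 24 tested acute-phase regulators 2 rose and 6 fell in flight, with a median of -0.18. These counts, too, lie near the 12.7% higher and 25.7% lower over all genes. Epas1, the endothelial hypoxia-inducible factor, was 1.99-fold higher (log2 0.99, SE 0.24, adjusted p = 0.00793), and higher by 0.63 on the log2 scale without the osteoinductive microgravity array, where it was 527.6, against 119.0 to 209.0 elsewhere, and its adjusted p was 0.0537 with a trended, robust variance estimate. Epas1 averaged below the filter cut of 7.14 on the ground-based arrays, so it was tested only through its flight values. With no filter it remained called (limma, adjusted p = 0.0109). The receptor Lifr rose by 0.29 (adjusted p = 0.0164), and its call ended without the osteoinductive microgravity array (adjusted p = 0.0533), the osteoinductive ground array (0.058) or the growth ground array (0.0581). Lif fell by 0.40 (adjusted p = 0.0128) and the glucocorticoid receptor Nr3c1 by 0.38 (adjusted p = 0.0122), or by 0.25 after quantile normalization. Leaving out 1 array moved the number that fell between 2 and 10.

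**Figure D4:**
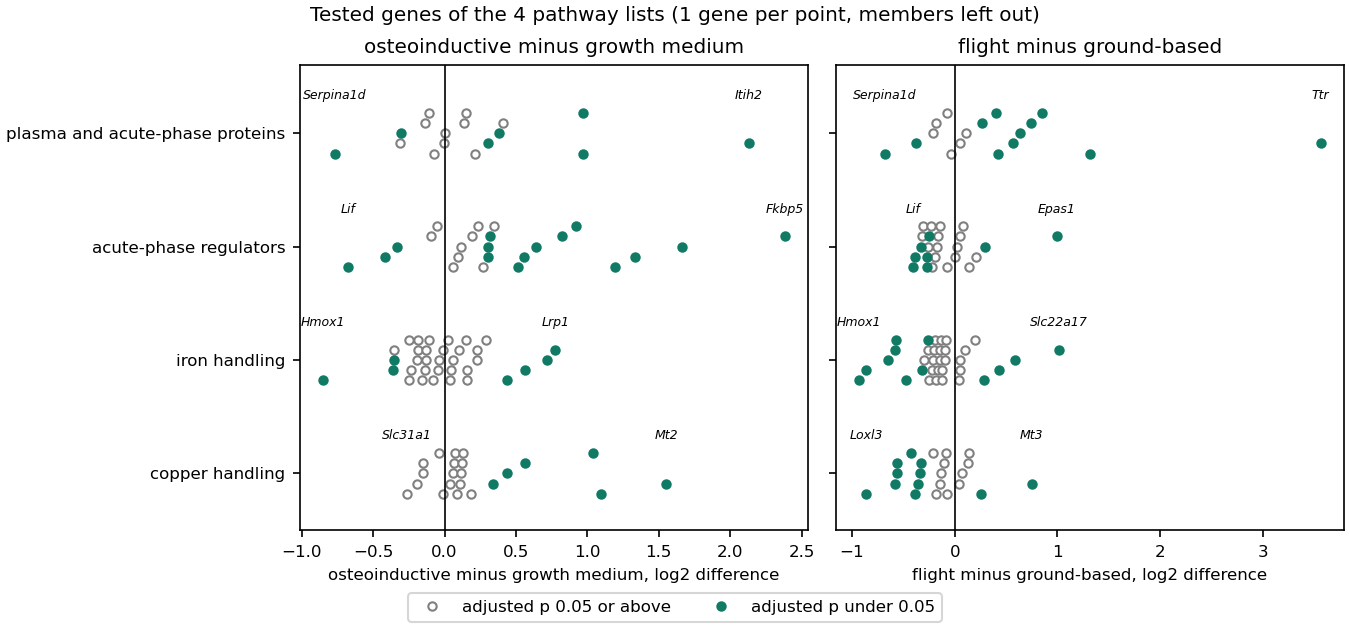
Log2 differences (horizontal) of tested genes in 4 lists (vertical) for osteoinductive minus growth medium (left) and flight minus ground-based arrays (right), 1 gene per point, filled where adjusted p is under 0.05. The lowest and the highest gene of each list are named, such as Fkbp5 at 2.39 between media and Ttr at 3.56 in flight.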

How the data were processed

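Total RNA from 8 cultures was measured on Affymetrix whole-transcript arrays with 1 colour. The deposited values are probe set intensities on a linear scale, made by the authors with RMA and GCRMA, per the submitters' processing notes, which give no versions and do not say which gave these values. The authors' genome build and annotation are not named in the labels or headers. Titles set the groups: both centrifuge samples carry a microgravity label for gravity, and the description of the osteoinductive one names growth medium once. All value columns were mapped.

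Of the probe sets, 21789 named 1 gene, 1621 several and 12147 none in the platform annotation. The brightest probe set stood for each gene. Log2 intensities were fitted with limma 3.58.1 in R 4.3.3 for 13205 of 19938 genes with a mean above the 40th percentile (7.14). Tests were two-sided with Benjamini-Hochberg adjustment over all tested genes at a threshold of 0.05, with 5 residual degrees of freedom for flight, 4 for the interaction and 3 for the other contrasts. The fit was tested on simulated data. Alternatives were quantile normalization, other filters, an offset, averaged probe sets, other models and leaving out each array. Named genes are the members, up to 2 per direction with the largest difference in each of 4 lists, and the 5 genes most correlated with Trf and with Tfrc. Members, lists and markers were chosen with earlier results of these data known. Sequences are from RefSeq on GRCm38.p6.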

Additional observations from a re-analysis of the deposited data

How the results depend on the processing

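With no term for medium, 0 members were called higher in flight, 1 lower (Tfrc), and 3159 genes were called in place of 5068. The difference between media then enters the residual by construction, and adjusted p was 0.772 for Trf, 0.686 for Serpina3n, 0.37 for Lcn2, 0.187 for Steap4 and 0.0743 for Slc40a1. With the filter at the 60th percentile 2 members were called higher, because Lcn2 and Steap4 were no longer tested. Steap4 was also lost after quantile normalization and without the osteoinductive ground array. In the other flight fits the 8 tested members kept their side of the threshold.

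Leaving out 1 array gave between 0 and 20 called genes for the interaction, between 0 and 47 for microgravity against the centrifuge, and between 1114 and 1595 for the media, against 1921 with all arrays. The fewest medium calls, 1114 and 1120, came without the osteoinductive or the growth centrifuge array. Both fits remove the centrifuge condition from the contrast of media and are 1 check. With only the 4 arrays concerned, 49 genes were called for microgravity against the centrifuge and 9 for ground units against dishes.

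The member values that changed sign were all uncalled, and each did so with 1 array left out (log2 differences). For flight against ground-based arrays the range was Cp between -0.33 and 0.033. For the interaction the ranges were Lcn2 between -0.058 and 0.59, Hp between -0.15 and 0.48 and Serpina3n between -0.68 and 0.12. For microgravity against the centrifuge the ranges were Steap4 between -0.037 and 0.032, Tfrc between -0.23 and 0.70, Trf between -0.012 and 0.24, Cp between -0.63 and 0.090 and Serpina3n between -0.22 and 0.57. For ground units against dishes the ranges were Trf between -0.32 and 0.28, Cp between -0.78 and 0.15, Serpina3n between -0.67 and 0.37, Lcn2 between -0.51 and 0.0030, Slc40a1 between -0.096 and 0.22, Hp between -0.036 and 0.20 and Tfrc between -0.11 and 0.47. No paired analysis by replicate number was possible because the labels number no replicates. The contrast of media, with condition in the model, does set the media against each other within each condition. Dim genes such as Saa3 and Orm1 limit what can be said of the acute-phase proteins, and the files give no detection calls.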
